A study of Mus musculus with 4 samples.

Results

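Integrins are cell surface receptors made of one alpha and one beta chain, and laminins are basement membrane proteins made of one alpha, one beta and one gamma chain. The genes described here are 38 of the 37074 gene names on the array, whose name in the scanner files is that of an integrin alpha or beta chain (Itga or Itgb) or a laminin chain (Lama, Lamb or Lamc), chosen by name and not by value. They are 27 integrin chains, 10 laminin chains and the beta-like gene Itgbl1. Of these, 35 had a probe that the scanner software marked as well above background on 2 or more arrays of 4, among 23520 features that passed the same filter. Of the 35, 27 were so marked on all 4 arrays.

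The RNA came from cells sorted out of tumours grown in untreated BALB/C mice from 4T1, a mouse mammary carcinoma line. The cells were sorted with the ALDEFLUOR reagent, whose product marks aldehyde dehydrogenase (ALDH) activity, and are labelled ALDH(+) or ALDH(-), called ALDH-high and ALDH-low here after the design text. The samples carry the zeitgeber times ZT12 and ZT0, where zeitgeber time counts hours of the light cycle. The groups were ZT12 ALDH-high, ZT12 ALDH-low, ZT0 ALDH-high and ZT0 ALDH-low, with 1 one-colour Agilent array each and no replicate. The age and the number of mice are not given in the sources used here, and no gate for other cell types is described.

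Each of these receptors and matrix proteins works as a complex, so the chains were grouped by the cells in which they are best known. Beta chain Itgb2 with the alpha chains Itgal, Itgam, Itgax or Itgad makes the leukocyte integrins, and Itga4, Itgae and Itgb7 make further leukocyte receptors for vascular and epithelial ligands. Itga2b with Itgb3 is the platelet fibrinogen receptor. Itga6 with Itgb4 anchors epithelial cells to laminin-332, whose chains include Lama3 and Lamb3, in hemidesmosomes, and Itga3 with Itgb1 is another laminin receptor of epithelia. Laminins with the chains Lama5, Lamb1, Lamb2 and Lamc1 line most epithelial and vascular basement membranes.

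Levels below are the log2 processed signal relative to the 75th percentile of its array, for the probe of each gene with the highest mean level. Differences are ALDH-high minus ALDH-low on this log2 scale unless ZT12 minus ZT0 is named, and 1 log2 unit (2-fold) was the size counted. A level compares arrays for 1 probe, not genes with each other. The ZT12 samples shared slide 2 and the ZT0 samples slide 1, and a time difference cannot be told apart from a slide difference. At position 1-1 of the slides were ZT12 ALDH-high and ZT0 ALDH-low, with the other two at position 1-2, so a difference between the times in the effect of ALDH cannot be told apart from a difference between positions. Spike-in controls had slopes of 0.789 and 0.873 at position 1-1, and of 0.956 and 0.944 at position 1-2. Spots well above background made up 55.8% to 60.6% of each array and 0 were saturated.

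Leukocyte chains Itgal, Itgb2, Itga4 and Itgb2l were lower in ALDH-high at ZT12 and higher in ALDH-high at ZT0. Epithelial chains Itga6, Itgb4 and Itga3, with laminin chains Lama5, Lamb1, Lamb2 and Lamc1, differed by less than 2-fold at ZT12 and were 5.95- to 15.0-fold lower in ALDH-high at ZT0. With each array scaled on its median these laminin chains were also past 2-fold lower at ZT12 (Lamb1 -1.88, Lama5 -1.64, Lamb2 -1.32 and Lamc1 -1.09). The platelet chains Itga2b and Itgb3 did not pass 2-fold at either time, although Itga2b did with each array scaled on its median (-1.82 at ZT12 and 1.26 at ZT0). A further set, of Lama1, Lama2, Lama4, Itga1, Itga8 and Itga9, was higher in ALDH-high at ZT12 and lower at ZT0, although Itga8 (-0.63) and Lama2 (-0.94) were not past 2-fold at ZT0 with each array scaled on its median. Lama1, Lama4 and Itga8 each had 1 probe that passed the filter, beside others that did not.

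**Figure D1:**
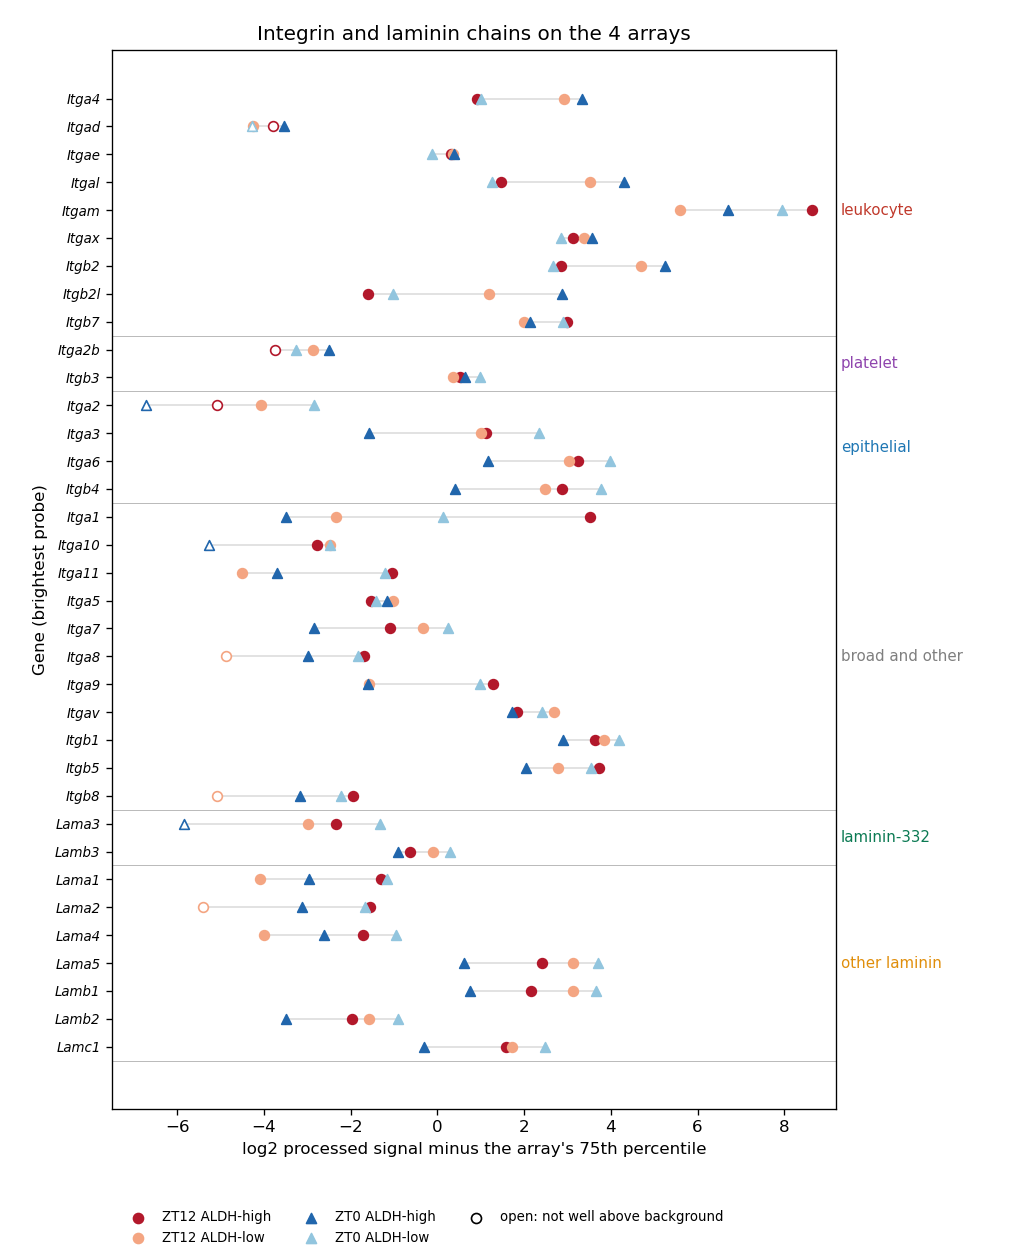
Level of each of the 35 chains on the 4 arrays, as log2 processed signal relative to that array's 75th percentile (x axis), 1 row per gene and 1 point per array, with open points where the probe was not well above background. Itgal, Itgb2, Itga4 and Itgb2l have their ZT0 ALDH-high and ZT12 ALDH-low points on the right, whereas most epithelial and laminin chains have the ZT0 ALDH-high point alone on the left.

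No difference passed the test that this design allows. In the additive limma fit of ALDH and time, 0 of 35 members and 0 of 23520 features (0%) had an adjusted p under 0.05. At an unadjusted p under 0.05 there were 0 members and 7 features, and the smallest unadjusted p of a member was 0.113, for Itga2, which was not well above background on either ALDH-high array. The fit has 1 residual degree of freedom and a standard error of 1.54 log2 units for every gene. The values that follow therefore describe these 4 arrays, and 2-fold counts carry no test.

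Against all features, 9 of the 35 members were higher and 4 lower by 2-fold or more in ALDH-high at ZT12, where 31% of features were higher and 16.1% lower. At ZT0, 4 members were higher and 22 lower, where 19.4% of features were higher and 31.2% lower. The 22 include Itga2, which passed the filter through the ALDH-low arrays alone, so its lower value was set by the filter. The epithelial medians below include Itga2 too. The median difference of the members was -0.06 at ZT12 and -1.45 at ZT0, against 0.30 and -0.32 over all features. The ZT12 counts depended on the scaling: with each array scaled on its median, 9 members were higher and 16 lower at ZT12, while 4308 features were higher and 8975 lower, against 7288 and 3793 with the 75th percentile. At ZT0 that scaling gave 7 members higher and 16 lower, with 6904 features higher and 4380 lower, against 4561 and 7335. It moved the median of all features to -0.64 at ZT12 and to 0.19 at ZT0. The epithelial, laminin-332 and leukocyte medians under that scaling were -0.77, -0.87 and -1.17 at ZT12, and -3.10, -2.34 and 1.23 at ZT0.

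**Figure D2:**
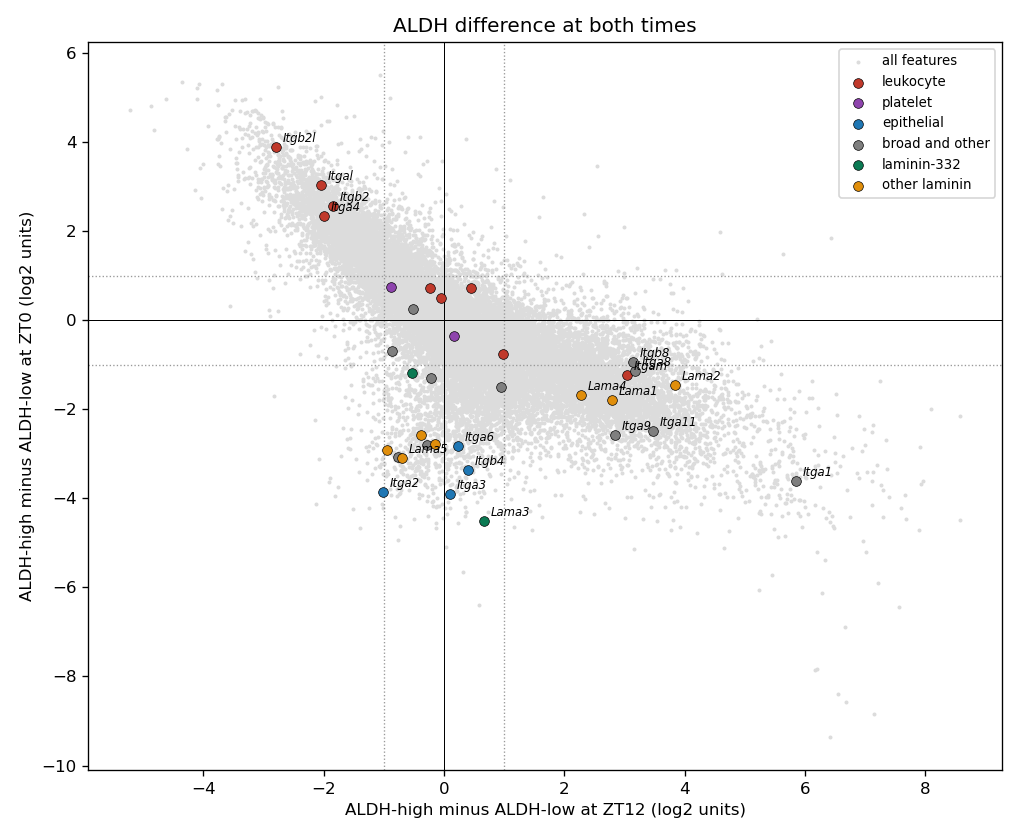
ALDH-high minus ALDH-low difference at ZT12 (x axis) and at ZT0 (y axis) in log2 units, for 35 integrin and laminin chains coloured by group over all 23520 features in grey, with dotted lines at 2-fold. Itgb2l, Itgal, Itgb2 and Itga4 lie at the upper left, Lama3, Itga3 and Itgb4 lie at the bottom near 0 on the x axis, and Itga1, Lama2 and Itga11 lie at the lower right.

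The probes that carry the leukocyte and epithelial results are shown by their first 30 of 60 bases, 5′ to 3′, because one of them differs in kind from the rest: capitals mark 20 bases that it shares with probes of other genes. The positions are those of the scanner files in build mm9.
Itgam, brightest probe, chr7:135261755-135261814 (+): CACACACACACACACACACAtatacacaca
Itgam, second probe, chr7:135212140-135212199 (+): tgttaaccagacaggtgccctctaccagtg
Itgb2, chr10:77027978-77028037 (+): aaagctagagcatgagttatcataatcaag
Itgal, chr7:134477160-134477219 (+): acttgagagccctggctctgaccagcttca
Itga6, chr2:71694756-71694815 (+): gagaatgagaacctgggaggtcttgttgtt
Itgb4, chr11:115869557-115869616 (+): cataaagtgggtagaggtgatacaaggtct
Exon and UTR positions of these probes were not analysed here.

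Itgal, the alpha chain of the lymphocyte and neutrophil adhesion receptor LFA-1, had levels of 1.46 on the ZT12 ALDH-high array and 3.52 on ZT12 ALDH-low, and of 4.30 on ZT0 ALDH-high and 1.27 on ZT0 ALDH-low. Its partner Itgb2, the beta chain common to the leukocyte integrins, had 2.86 on ZT12 ALDH-high and 4.70 on ZT12 ALDH-low, and 5.24 on ZT0 ALDH-high and 2.66 on ZT0 ALDH-low. Both were high on the same pair of arrays, those at position 1-2. The difference was -2.05 at ZT12 and 3.04 at ZT0 for Itgal, which is 4.15-fold lower and 8.21-fold higher in ALDH-high. For Itgb2 it was -1.85 and 2.58, or 3.59-fold lower and 5.97-fold higher. The other Itgal probes that passed, 2 in number, had the same signs at both times.

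Itga4, whose product pairs with Itgb1 or Itgb7 and binds VCAM1 and fibronectin, had levels of 0.92 on ZT12 ALDH-high and 2.92 on ZT12 ALDH-low, and of 3.34 on ZT0 ALDH-high and 1.0 on ZT0 ALDH-low. Itgb2l, a mouse gene related to Itgb2 and known from neutrophils, had -1.59 on ZT12 ALDH-high and 1.20 on ZT12 ALDH-low, and 2.86 on ZT0 ALDH-high and -1.04 on ZT0 ALDH-low. Again the position 1-2 arrays were the high ones. The Itga4 difference was -2.0 at ZT12 and 2.33 at ZT0, and that of Itgb2l was -2.79 and 3.90. For Itga4, 1 of the 4 other probes had the opposite sign at ZT12 (2.19). These 4 genes were the 4 of 9 leukocyte chains that were lower at ZT12 and higher at ZT0, as were 14% of all features. All 4 had mean levels above 0. Of features with a mean level of 0 or above, 2389 of 9671 had this pattern, against 260 of 7756 with one below -2.

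The remaining leukocyte chains other than Itgam stayed within 2-fold. Exceptions under another scaling included Itgax and Itgb7. Itgax was at -1.17 at ZT12 and 1.23 at ZT0 with each array scaled on its median, while quantile normalization gave 0.22 and 0.13. Itgb7 was past 2-fold higher at ZT12 with quantile normalization (1.37) and in the series table (1.40). Under both it was also past 2-fold lower at ZT0. Itgax, the dendritic cell and macrophage chain known as CD11c, had levels of 3.14 on ZT12 ALDH-high and 3.37 on ZT12 ALDH-low, and of 3.57 on ZT0 ALDH-high and 2.85 on ZT0 ALDH-low. Itgae, which with Itgb7 binds E-cadherin, had 0.31 and 0.37 at ZT12 and 0.38 and -0.13 at ZT0, in ALDH-high and then ALDH-low. Itgb7 itself had 2.98 and 2.01 at ZT12 and 2.13 and 2.89 at ZT0 in the same order, a difference of 0.97 at ZT12 and -0.76 at ZT0. Itgb7 was thus the one chain of the 3 whose higher arrays were those at position 1-1. Itgad, a macrophage chain, was not well above background on ZT12 ALDH-high or on ZT0 ALDH-low, and its levels lay between -4.27 and -3.54.

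Itgam, the alpha chain of the myeloid complement receptor Mac-1 (CD11b), was measured by a pair of probes that went opposite ways. The brightest probe had levels of 8.63 on ZT12 ALDH-high and 5.59 on ZT12 ALDH-low, and of 6.71 on ZT0 ALDH-high and 7.93 on ZT0 ALDH-low, a difference of 3.04 at ZT12 and -1.23 at ZT0. That probe holds the CA repeat printed above, and shares a run of 20 bases with probes of 29 other gene names. It ranked 258 of 56605 probes by mean level. All 28 other probes that hold the printed run were at least 2-fold higher at ZT12 and 2-fold lower at ZT0 in ALDH-high, with median differences of 3.77 and -1.49. The second Itgam probe had -1.17 on ZT12 ALDH-high and -0.50 on ZT12 ALDH-low, and -0.43 on ZT0 ALDH-high and -1.95 on ZT0 ALDH-low. Its difference was -0.67 at ZT12 and 1.51 at ZT0, with the signs of Itgb2 at both times. The level of Itgam is therefore uncertain, and its brightest probe is the 1 leukocyte chain counted as higher at ZT12 and lower at ZT0.

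General leukocyte markers had the signs of Itgal and Itgb2. Of the 4, Ptprc (CD45) differed by -2.35 at ZT12 and 3.09 at ZT0, Coro1a by -0.81 and 1.98, and Laptm5 by -0.24 and 1.17. The summed signal of the 4, in units of the 75th percentile, was 247.7 on ZT12 ALDH-high and 481.0 on ZT12 ALDH-low, and 736.0 on ZT0 ALDH-high and 172.9 on ZT0 ALDH-low. Of 6 neutrophil markers, Ly6g differed by -3.06 and 4.97, Cxcr2 by -3.18 and 4.69 and S100a8 by 0.57 and 0.35. S100a9 (1.27 and -0.26) and Csf3r (1.70 and -0.72) had the opposite signs to Ly6g, so that 2 of the 6 were past 2-fold higher and 2 lower at ZT12, and 3 higher and 0 lower at ZT0. Over all features 31% were higher and 16.1% lower at ZT12, and 19.4% higher and 31.2% lower at ZT0. The sum of the 6 was 3020 on ZT12 ALDH-high and 1541 on ZT12 ALDH-low, and 2539 on ZT0 ALDH-high and 2203 on ZT0 ALDH-low.

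Lymphocyte markers went the other way. The T and NK cell markers Il2rb (5.85 at ZT12 and -3.47 at ZT0), Gzma (7.60 and -4.22) and Cd3e (2.97 and -1.57) were high on the position 1-1 arrays, as were all 5 of their list. Their summed signal was 34.7 on ZT12 ALDH-high and 1.08 on ZT12 ALDH-low, and 2.82 on ZT0 ALDH-high and 28.5 on ZT0 ALDH-low. The B cell markers Cd79b (5.62 and -4.39) and Ms4a1 (5.60 and -1.21) did the same. Cd79a was not well above background on either position 1-2 array. It passed the filter through the position 1-1 arrays alone, so this was set by the filter. The 3 B cell markers had sums of 20.5 and 0.436 at ZT12 and 2.81 and 12.3 at ZT0, in ALDH-high and then ALDH-low. Among 6 macrophage and dendritic cell markers, C1qa (3.19 and -2.80) and Cd74 (2.76 and -1.77) were also high at position 1-1 and Csf1r (-0.27 and 0.61) was not, with sums of 312.4 and 152.2 at ZT12 and 166.9 and 241.3 at ZT0. The part of these cells in the leukocyte chain values was not tested, and in sorted bulk RNA fewer cells of a type and less RNA per cell cannot be told apart.

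The platelet pair showed small differences. Itga2b, the alpha chain specific to megakaryocytes and platelets, was not well above background on ZT12 ALDH-high (-3.75), and had -2.86 on ZT12 ALDH-low, -2.50 on ZT0 ALDH-high and -3.25 on ZT0 ALDH-low. Itgb3, which also pairs with Itgav on other cells, had 0.52 on ZT12 ALDH-high and 0.36 on ZT12 ALDH-low, and 0.63 on ZT0 ALDH-high and 0.97 on ZT0 ALDH-low. Its 4 levels span less than 1 log2 unit. Itga2b was at least 1.46-fold lower in ALDH-high at ZT12 and 1.69-fold higher at ZT0. A second Itgb3 probe has no fold at ZT12, as it was too dim on 1 array there. At ZT0 its difference was 0.53, opposite in sign to the first. Of the platelet markers, Pf4 differed by 2.01 at ZT12 and -2.79 at ZT0 and Ppbp by 0.24 and -0.57. Gp9 was not well above background on either position 1-1 array and at least 1.88 log2 units higher in ALDH-high at ZT0. It passed the filter through the position 1-2 arrays alone, so this direction was set by the filter. Gp1bb differed by 0.16 and 0.75. Gp5 did not pass the background filter. The 6 platelet markers that passed summed to 40.1 on ZT12 ALDH-high and 10.8 on ZT12 ALDH-low, and to 5.61 on ZT0 ALDH-high and 29.5 on ZT0 ALDH-low. Pf4 alone made up 38.1 and 9.47 of these at ZT12 and 4.01 and 27.8 at ZT0, in ALDH-high and then ALDH-low, and the sum of the other 5 markers lay between 1.38 and 1.98 on every array. The red cell markers Hba-a1 (6.16 and -7.85) and Hbb-b2 (6.69 and -8.57) were high on the position 1-1 arrays. Alas2, not well above background on either position 1-2 array, passed the filter through the position 1-1 arrays alone, so its direction was set by the filter. The 3 red cell markers summed to 236.2 on ZT12 ALDH-high and 3.13 on ZT12 ALDH-low, and to 2.82 on ZT0 ALDH-high and 697.6 on ZT0 ALDH-low.

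Among epithelial chains, the laminin receptor genes Itga6 and Itgb4 stood apart on 1 array. Itga6 had levels of 3.25 on ZT12 ALDH-high and 3.02 on ZT12 ALDH-low, and of 1.16 on ZT0 ALDH-high and 3.99 on ZT0 ALDH-low. Itgb4 had 2.88 on ZT12 ALDH-high and 2.48 on ZT12 ALDH-low, and 0.41 on ZT0 ALDH-high and 3.77 on ZT0 ALDH-low. The ZT0 ALDH-high array was the lowest for both, and ZT0 ALDH-low the highest. The difference was 0.23 at ZT12 and -2.83 at ZT0 for Itga6 (7.09-fold lower) and 0.39 and -3.36 for Itgb4 (10.2-fold lower). One of the 3 other Itga6 probes had the opposite sign at ZT0 (0.64).

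Itga3, the alpha chain of an epithelial laminin-332 receptor, had levels of 1.11 on ZT12 ALDH-high and 1.01 on ZT12 ALDH-low, and of -1.57 on ZT0 ALDH-high and 2.34 on ZT0 ALDH-low. Itga2, a collagen receptor chain of epithelia and platelets, was well above background on the ALDH-low arrays alone, with -4.07 on ZT12 ALDH-low and -2.86 on ZT0 ALDH-low. The ZT0 ALDH-high array was again the lowest of the 4 for Itga3, and the ALDH-high arrays cannot be ranked for Itga2. Itga3 was 15.0-fold lower in ALDH-high at ZT0 (-3.91; 0.10 at ZT12), and its second probe was lower by less than 2-fold (-0.99). Itga2 was at least 3.32-fold lower at ZT0 and has no fold at ZT12. As it passed the filter through the ALDH-low arrays alone, its lower value was set by the filter. Itgb6, the epithelial partner of Itgav, was not well above background on any array.

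The laminin-332 chains Lama3 and Lamb3 were lower in ALDH-high at ZT0. Lama3, the alpha chain, had levels of -2.33 on ZT12 ALDH-high and -2.99 on ZT12 ALDH-low, was not well above background on ZT0 ALDH-high (-5.83), and had -1.33 on ZT0 ALDH-low. Lamb3, the beta chain, had -0.63 on ZT12 ALDH-high and -0.10 on ZT12 ALDH-low, and -0.90 on ZT0 ALDH-high and 0.28 on ZT0 ALDH-low. Both were lowest on ZT0 ALDH-high and highest on ZT0 ALDH-low, with a wider range for Lama3. At ZT0 Lama3 was at least 9.56-fold lower in ALDH-high, and the difference of Lamb3 was -1.19 (2.28-fold lower). At ZT12 the differences were 0.66 for Lama3 and -0.53 for Lamb3. Of the 2 other Lamb3 probes, 1 had the opposite sign at ZT0 (at least 7.14-fold higher).

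The chains of the widespread laminins had the same shape. Lama5 had levels of 2.42 on ZT12 ALDH-high and 3.12 on ZT12 ALDH-low, and of 0.62 on ZT0 ALDH-high and 3.71 on ZT0 ALDH-low. Lamb1 had 2.17 on ZT12 ALDH-high and 3.12 on ZT12 ALDH-low, and 0.75 on ZT0 ALDH-high and 3.66 on ZT0 ALDH-low. Lamc1, the gamma chain of most laminins, had 1.57 on ZT12 ALDH-high and 1.72 on ZT12 ALDH-low, and -0.30 on ZT0 ALDH-high and 2.49 on ZT0 ALDH-low. In each case ZT0 ALDH-high was lowest and ZT0 ALDH-low highest. The ZT0 difference was -3.09 for Lama5, -2.90 for Lamb1, -2.79 for Lamc1 and -2.57 for Lamb2, and at ZT12 they ranged from -0.95 for Lamb1 to -0.15 for Lamc1. One of the 2 other Lamb1 probes was higher in ALDH-high at ZT12 (2.82). At ZT0 all 9 of these laminin chains that passed were at least 2-fold lower in ALDH-high, where 31.2% of all features were; with each array scaled on its median, Lamb3 (-0.68) and Lama2 (-0.94) were not. Of the 35 members, 14 were lower at ZT0 and not past 2-fold at ZT12, as were 11.1% of all features. Of the 14, 6 were laminin chains and 4 were epithelial integrin chains. With each array scaled on its median 5 members had this pattern (Itga2, Itga3, Itga6, Itgb4 and Lama3), as did 6.9% of features, so the count depended on the scaling. Both counts include Itga2, which has no fold at ZT12. It passed the filter through the ALDH-low arrays alone, so its lower value at ZT0 was set by the filter. The 14 also include Itga10, whose probes differed at ZT12.

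Epithelial markers were also lowest on the ZT0 ALDH-high array. Epcam differed by 1.08 at ZT12 and -3.57 at ZT0, Krt8 by 0.07 and -4.07 and Krt18 by 0.02 and -4.22. All 8 markers of the list were at least 2-fold lower at ZT0, against 31.2% of all features. Their summed signal was 91.6 on ZT12 ALDH-high and 84.3 on ZT12 ALDH-low, and 10.7 on ZT0 ALDH-high and 191.9 on ZT0 ALDH-low. On 3 arrays all 8 were well above background, and on ZT0 ALDH-high 7 were. The part of the number of epithelial cells in the integrin and laminin values was not tested. The carcinoma label of the cells thus has epithelial markers on all 4 arrays, beside the leukocyte and red cell markers given above.

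The other laminin alpha chains had another pattern. Lama1, the alpha chain best known from the embryo, had levels of -1.31 on ZT12 ALDH-high and -4.10 on ZT12 ALDH-low, and of -2.95 on ZT0 ALDH-high and -1.17 on ZT0 ALDH-low. Lama2, the muscle and nerve chain, had -1.55 on ZT12 ALDH-high, was not well above background on ZT12 ALDH-low (-5.40), and had -3.13 on ZT0 ALDH-high and -1.68 on ZT0 ALDH-low. Lama4, a chain of vessel walls, had -1.72 on ZT12 ALDH-high and -3.99 on ZT12 ALDH-low, and -2.63 on ZT0 ALDH-high and -0.95 on ZT0 ALDH-low. The high arrays were those at position 1-1 for these genes. Lama1 was 6.91-fold, Lama2 at least 10.4-fold and Lama4 4.82-fold higher in ALDH-high at ZT12, and they were 3.44-, 2.73- and 3.19-fold lower at ZT0. The second Lama1 probe was not well above background on any array, and neither was Lamc3.

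Among the more widely expressed integrin chains, 4 had this pattern too. The collagen receptor chain Itga1 had levels of 3.51 on ZT12 ALDH-high and -2.33 on ZT12 ALDH-low, and of -3.48 on ZT0 ALDH-high and 0.12 on ZT0 ALDH-low. Its difference of 5.85 at ZT12 was the highest of the 35 members, and 4 other Itga1 probes gave 0.20 to 3.06 there. Itga9, a receptor chain for tenascin and VCAM1, had 1.27 on ZT12 ALDH-high and -1.58 on ZT12 ALDH-low, and -1.60 on ZT0 ALDH-high and 0.98 on ZT0 ALDH-low. Both Itga9 probes had the same signs. The collagen receptor chain Itga11 differed by 3.47 and -2.49, but its other probe gave -0.36 at ZT12 and was at least 2.71-fold higher at ZT0, so its direction is uncertain. Itga8, a nephronectin and fibronectin receptor chain, was at least 9.03-fold higher in ALDH-high at ZT12 and 2.20-fold lower at ZT0. Its levels were -1.70 on ZT12 ALDH-high and -4.87 (not well above background) on ZT12 ALDH-low, and -2.98 on ZT0 ALDH-high and -1.84 on ZT0 ALDH-low. Its other probe was well above background on 1 array alone. With Itgam and these laminin alpha chains, 8 of 35 members were higher at ZT12 and lower at ZT0, as were 20% of all features; scaled on the array median, 5 members and 9.81% of features were. No member was past 2-fold in 1 direction at both times, and few features were (0.106% higher at both and 0.166% lower at both). This too depended on the scaling: on the array median, Lama5, Lamb1, Lamb2, Lamc1, Itga7 and Itga10 were past 2-fold lower at both times, as were 1.92% of features, among them Lamb1 (-1.88 and -2.40) and Itga7 (-1.69 and -2.57).

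Dim probes moved this way in general. Features with a mean level below -2 had a median difference of 1.16 at ZT12 and -0.71 at ZT0 over 7756 features. Those from -2 to 0 had 0.46 and -0.53 over 6093, and those at 0 or above had -0.33 and 0.28 over 9671. Lama1, Lama2, Lama4, Itga8 and Itga11 have mean levels below -2. Probes also differed by kind: the 47 member probes with a RefSeq mRNA accession that passed had a median of -0.16 at ZT12 and -1.29 at ZT0, and the 25 others 1.57 and -0.50. The probes used for Lama1, Lama2, Lamc1, Itga8, Itga11 and Itgb8 were among the others. Probes with a RefSeq mRNA accession were well above background on 1 array for Itga8 and on none for Lama1 and Itgb8. Lama2, Lamc1 and Itga11 each had such a probe that passed. The part of probe level or kind in the values of these genes was not tested.

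The other 7 widely expressed chains were within 2-fold at ZT12, apart from Itgb8. With each array scaled on its median 5 of them were past 2-fold lower there (Itgav -1.80, Itga7 -1.69, Itga5 -1.46, Itga10 -1.23 and Itgb1 -1.15). Itgb1, the most common beta chain, had levels of 3.63 on ZT12 ALDH-high and 3.84 on ZT12 ALDH-low, and of 2.89 on ZT0 ALDH-high and 4.18 on ZT0 ALDH-low. Itgav, the alpha chain of many vitronectin receptors, had 1.83 on ZT12 ALDH-high and 2.69 on ZT12 ALDH-low, and 1.72 on ZT0 ALDH-high and 2.41 on ZT0 ALDH-low. The ALDH-low arrays were the higher ones for both genes at both times. The differences were -0.22 and -1.29 for Itgb1 and -0.86 and -0.68 for Itgav. The fibronectin receptor chain Itga5 differed by -0.52 at ZT12 and 0.26 at ZT0, the vitronectin receptor chain Itgb5 by 0.94 and -1.49, and the muscle laminin receptor chain Itga7 by -0.76 and -3.07. Itga10, a collagen receptor chain of cartilage, differed by -0.29 at ZT12 and was at least 4.34-fold lower at ZT0, while its second probe was at least 21.1-fold higher at ZT12. Its ZT12 difference was 3.86 with quantile normalization, 2.36 with normexp and 3.94 in the series table, so its direction is uncertain. Itgb8, whose integrin activates latent TGF-beta, was at least 7.89-fold higher at ZT12 and 1.93-fold lower at ZT0. This rests on 1 probe, and the other Itgb8 probes were not well above background on any array. Itgbl1, which is not an integrin chain, was well above background on 1 array alone.

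**Figure D3:**
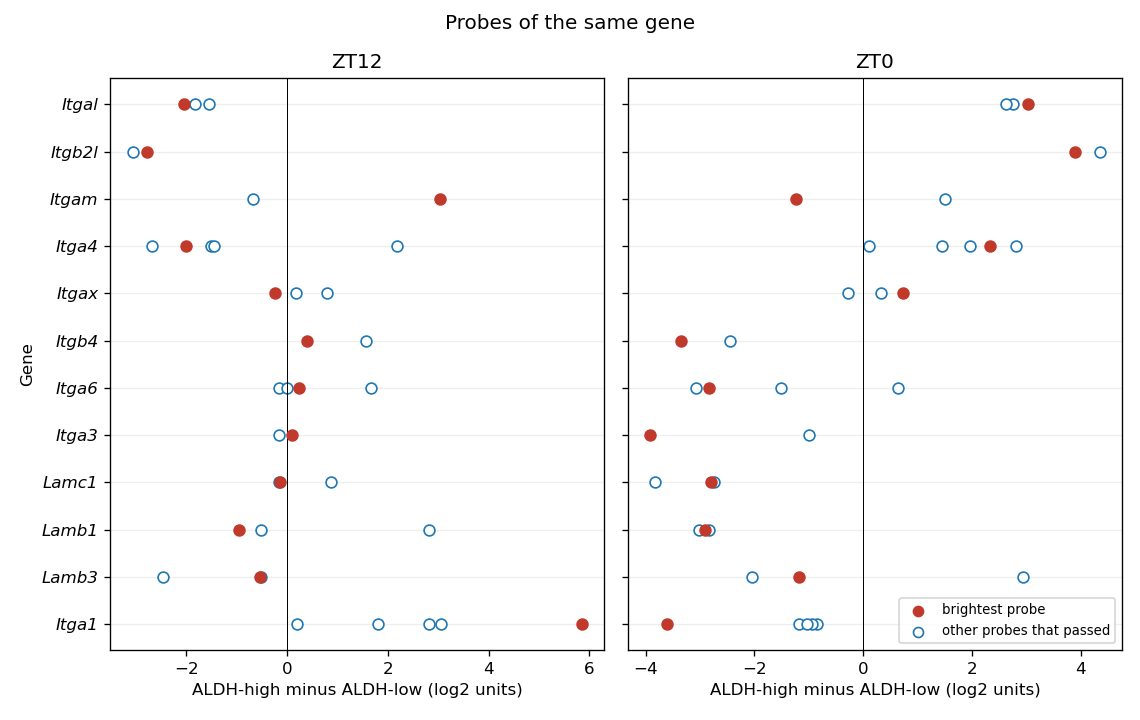
ALDH-high minus ALDH-low difference in log2 units (x axes) at ZT12 on the left and ZT0 on the right for every probe that passed of 12 genes, with the brightest probe of each gene filled and signals not well above background plotted as measured. The Itgal and Itgb2l probes lie together, and those of Itgam lie on opposite sides of 0 at both times.

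Of 20 members with more than 1 probe that passed, 7 had all probes of 1 sign at both times and 13 had at least 1 probe of the opposite sign at a time.

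The comparison of times asked how each fraction differed between ZT12 and ZT0. In ALDH-high, 19 of 35 members were higher at ZT12 than at ZT0 by 2-fold or more and 4 lower, where 31.8% of features were higher and 18.9% lower. The 4 lower ones were Itgal (-2.84), Itgb2 (-2.38), Itga4 (-2.42) and Itgb2l (-4.46), and the higher ones included Itga3 (2.69), Itgb4 (2.46) and Itga6 (2.08). In ALDH-low, 4 members were higher and 13 lower at ZT12, where 16.3% of features were higher and 32.5% lower. The same 4 leukocyte chains were the higher ones there, from 1.91 for Itga4 to 2.25 for Itgal, and Itga3 (-1.33) and Itgb4 (-1.28) were lower. The epithelial median was 2.27 in ALDH-high and -1.25 in ALDH-low. These contrasts use the same 4 arrays as the ALDH differences and are not independent of them, and each also compares slide 2 with slide 1.

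Within an array position, ALDH-high and ALDH-low can be compared once, although the time then differs as well. At position 1-1 (ZT12 ALDH-high minus ZT0 ALDH-low) the leukocyte chains had a median difference of 0.20 and a range of -0.56 to 0.69. At position 1-2 (ZT0 ALDH-high minus ZT12 ALDH-low) their median was 0.54, with a range of 0.02 to 1.67. Itgb2 was 0.20 at position 1-1 and 0.54 at position 1-2, and Itgal 0.20 and 0.79, against -1.85 and 2.58, and -2.05 and 3.04, at ZT12 and ZT0. The epithelial chains had medians of -1.06 and -2.33 and the laminin-332 chains -0.95 and -1.83, against 0.03 and 0.21 for all features. Of these 6 epithelial and laminin-332 chains, Itga2 passed the filter through the ALDH-low arrays alone, so its lower values were set by the filter. The epithelial medians include it, and the middle value of the other epithelial chains was that of Itgb4. The 5 chains other than Itga2 were lower in ALDH-high at both positions, among them Itga3 (-1.22 and -2.58), Itgb4 (-0.89 and -2.07) and Itga6 (-0.74 and -1.86). Itgb4 and Itga6 passed 2-fold at position 1-2 alone, and Lamb3 at neither (-0.91 and -0.81).

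With position as a block in place of time, limma called 0 members and 0 features (smallest adjusted p 0.608). At an unadjusted p under 0.05 there were 12 of 35 members, where 8.14% of all features were (1915 of 23520). Of these, 11 were lower in ALDH-high, namely Itga2, Itga3, Itga6, Itgb4, Itga7, Lama3, Lama5, Lamb1, Lamb2, Lamb3 and Lamc1. The 9 of them well above background on all 4 arrays had differences from -1.93 for Lamb1 to -0.86 for Lamb3. Itga2, not well above background on either ALDH-high array, and Lama3, not on 1 of them, have no exact difference. Itga2 passed the filter through the ALDH-low arrays alone, so its lower value was set by the filter. Itgam was higher (0.90), by the probe with the CA repeat. In this fit the SE was 0.35 for Lamb1 and 0.40 for Itgb4.

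**Figure D4:**
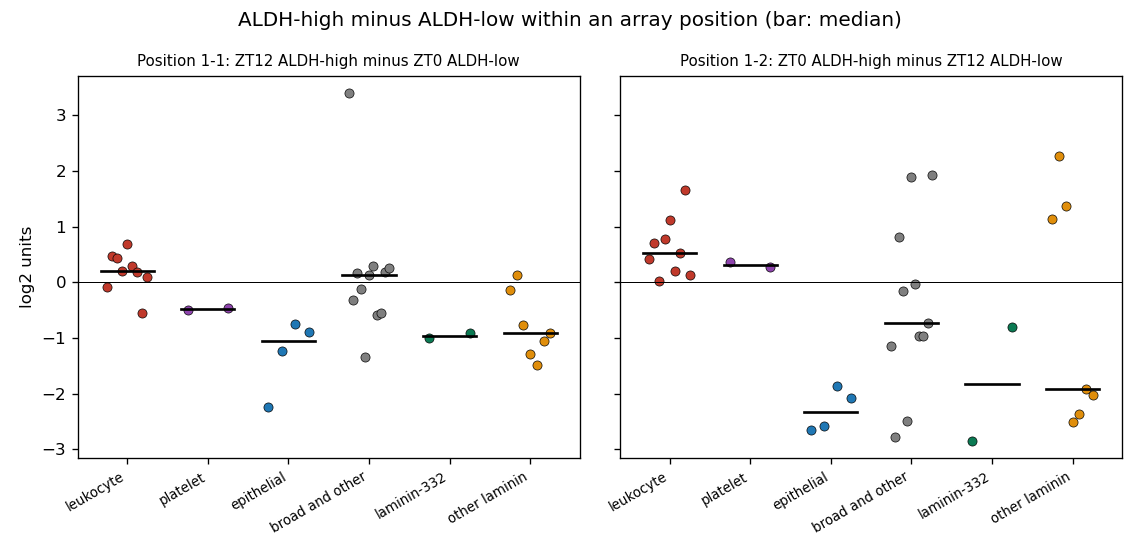
ALDH-high minus ALDH-low difference in log2 units (y axis) within position 1-1 on the left and position 1-2 on the right, 1 point per chain, with a bar at the median of each group. The epithelial and laminin-332 chains lie below 0 in both panels, and the leukocyte chains lie near or above 0. Among the epithelial chains, Itga2 passed the filter through the ALDH-low arrays alone.

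Genes linked to these chains were taken from 4 lists. Of 24 linkers and activators that passed, which join the integrin tail to actin or switch it on, 10 were 2-fold lower and 3 higher in ALDH-high at ZT12, and 6 lower and 16 higher at ZT0. Over all features 16.1% were lower and 31% higher at ZT12, and 31.2% lower and 19.4% higher at ZT0. All 10 of the lower ones at ZT12 were higher at ZT0. They included Tln1, which encodes talin (-1.20 and 1.59), the focal adhesion genes Zyx (-2.25 and 2.90) and Pxn (-2.05 and 2.85), and the leukocyte adaptor Fyb (-2.05 and 2.72). By mean difference the highest of the list were Skap1, a T cell adaptor (4.89 at ZT12 and -3.19 at ZT0), and Parvg, the blood cell parvin (-0.73 and 2.11). The lowest were the adaptor Bcar1 (-0.68 and -2.46) and Fermt2, the kindlin of non-blood cells (-0.36 and -2.32). Its blood cell relative Fermt3 differed by -0.45 and 1.38.

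Of 13 integrin ligands that passed, 7 were 2-fold lower and 1 higher in ALDH-high at ZT0, where 31.2% of all features were lower, and 1 was lower and 1 higher at ZT12. The lowest were the collagen gene Col4a1 (-0.14 at ZT12 and -2.55 at ZT0) and Vcam1, a ligand of Itga4 integrins (0.02 and -2.58). The highest were Vwf, the von Willebrand factor gene (-0.24 and 0.85), and the fibrinogen gene Fga (2.96 and -1.25). Among 8 hemidesmosome genes and other laminin receptors, 4 were lower at ZT0 and none past 2-fold at ZT12, with Dst, which links hemidesmosomes to the cytoskeleton (0.69 and -3.17), and dystroglycan, Dag1 (-0.50 and -1.57), the lowest and the tetraspanin Cd9 (-0.63 and 0.70) and the hemidesmosome collagen Col17a1 (0.87 and 0.42) the highest. Of 6 basement membrane partners, 4 were lower at ZT0, among them the perlecan gene Hspg2 (0.38 and -3.05), while Agrn, which encodes agrin, differed by -1.25 and 0.22, Fras1 by 2.81 and -1.47 and Egfl7 by 1.39 and -1.90. These lower partners include Npnt, which passed the filter through the ALDH-low arrays alone, so its lower value was set by the filter. No gene of the 4 lists was past 2-fold in 1 direction at both times. This too depended on the scaling. Scaling on the array median shifts all differences alike, so that the median of all features was -0.64 at ZT12 and 0.19 at ZT0. That shift puts Bcar1, Fermt2, Col4a1 and Dag1, among others, past 2-fold lower at both times. In the hemidesmosome list it also puts Cd9, Dag1, Plec and Cd151 past 2-fold lower at ZT12.

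Of 5 endothelial markers Cdh5, Tek and Cldn5 did not pass the background filter. Pecam1 differed by -0.04 at ZT12 and 0.54 at ZT0, and Kdr, a receptor for vascular endothelial growth factor, by 2.04 and -1.83, in the pattern of Lama4. The fibroblast markers Col1a1 (0.94 and -0.65), Pdgfrb (1.03 and, with ZT0 ALDH-high not well above background, -1.51) and Col3a1 (0.24 and -0.05) belong to a list of 5 with 1 gene higher at ZT12 and 1 lower at ZT0. Pdgfrb is the gene counted at both times. Of all features 31% were higher at ZT12 and 31.2% lower at ZT0.

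Promoter windows of 300 bases (250 before to 50 after the start of each gene, RefSeq, GRCm38.p6) matched 25 of the 38 members. Itgal, Itgb2, Itga6 and Itgb4 were not among the 25. The letters GAGGAA, a core bound by myeloid ETS factors such as PU.1, were searched on both strands, where the reverse reads TTCCTC. They occur in 28.3% of 32851 windows. Among members they occur in 3 of 5 windows of leukocyte chains, in 1 of 1 of platelet chains (Itga2b, with 2 matches) and in 2 of 5 of epithelial chains. They also occur in 4 of 10 of widely expressed chains, 1 of 2 of laminin-332 chains and 4 of 4 of other laminins. The erythroid and megakaryocyte motif AGATAA, searched likewise, occurs in 11.2% of windows and among members in that of Itgax alone. The windows of Itgam, with 3 matches, and Itgb2l, with 2, are printed with the matches in capitals, as these genes held the most matches among the leukocyte chains. A match is a description of the letters and was not tested as a binding site.
Itgam, chr7:128062390-128062689 (+): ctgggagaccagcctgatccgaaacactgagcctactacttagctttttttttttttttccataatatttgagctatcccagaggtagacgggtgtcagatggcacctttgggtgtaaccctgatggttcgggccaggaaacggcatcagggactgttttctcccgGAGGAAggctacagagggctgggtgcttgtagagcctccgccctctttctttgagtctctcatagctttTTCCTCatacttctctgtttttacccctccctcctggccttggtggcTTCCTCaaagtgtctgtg
Itgb2l, chr16:96443565-96443864 (-): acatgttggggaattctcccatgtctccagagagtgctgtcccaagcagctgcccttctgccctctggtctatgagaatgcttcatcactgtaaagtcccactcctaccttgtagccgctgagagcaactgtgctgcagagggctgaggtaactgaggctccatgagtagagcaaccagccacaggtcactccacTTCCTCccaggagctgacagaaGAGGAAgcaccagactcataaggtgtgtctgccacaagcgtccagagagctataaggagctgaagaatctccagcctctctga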

How the data were processed

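Gene expression was measured on 4 one-colour Agilent arrays, 1 per group. Feature Extraction 10.7.1.1, per the file headers (9.5.1.1 in the submitters' processing notes), made the deposited processed signal, a linear intensity from which the background of each array was subtracted. The authors' deposited series table holds intensity values that are quantile normalized (each column has a median of 28.3), and was used as an alternative. Control and outlier spots were left out, replicate spots averaged on the log2 scale, the 75th percentile of each array subtracted, and the brightest probe well above background on at least 2 of 4 arrays kept per gene name. Where 1 of a pair of arrays was not well above background, a fold is given as a bound. ALDH was tested with limma 3.58.1 in R 4.3.3 (additive with time, two-sided, Benjamini-Hochberg over 23520 features), and tested on simulated data. The number of arrays limits the precision. The alternatives were median and quantile scaling, normexp background correction with an offset of 50, the series table, the mean of probes, and stricter and no filters. Further fits had no time term, position as a block, or each array left out, the last also without a time term.

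The members and lists were chosen with earlier results of these data known. A member and a marker that the rules would name are not reported here, and are left out of the counts and sums of their lists. The naming rule takes every member, the 2 highest and 2 lowest of each linked list by mean difference among genes well above background on all 4 arrays, any linked gene past 2-fold in 1 direction at both times, and the first 3 genes of each marker list. Tln1, Zyx, Pxn, Fyb, Fermt3, Plec, Cd151, Npnt, S100a9, Csf3r, Gp1bb, Gp5, Tek and Cldn5 were named after their values were seen. Python 3.11.15 read the files.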

Additional observations from a re-analysis of the deposited data

Results flagged for a closer look

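For 12 members the ALDH difference was past 2-fold in opposite directions at the 2 times. Of 35 members, 4 were lower at ZT12 and higher at ZT0, as were 14% of all features. The reverse held for 8 members, as for 20% of all features. The difference between times was not tested, and it cannot be told apart from the difference between array positions. As the ALDH difference at ZT12 minus that at ZT0, in log2 units, it was 9.45 for Itga1, 5.96 for Itga11, 5.43 for Itga9, 5.29 for Lama2, 4.57 for Lama1, 4.31 for Itga8, 4.26 for Itgam (by the probe with the CA repeat) and 3.94 for Lama4. It was -6.69 for Itgb2l, -5.09 for Itgal, -4.42 for Itgb2 and -4.33 for Itga4.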

How the results depend on the processing

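The additive limma fit called 0 members and 0 features under all 8 scaling, background, probe and filter alternatives. Fits without a time term, or with position as a block in place of time, also called 0 of both. The fits with an array left out had no time term and 1 array in an ALDH arm, so no counts are given for them. Of 96 group medians recomputed under these 8 alternatives, 94 moved by less than 1.54 log2 units, the spread of the additive fit, and kept the sign of any value past 2-fold. The other 2 were both of laminin-332 at ZT0 (-2.85), which was -1.24 with normexp and -1.19 over genes well above background on all 4 arrays. That spread is wider than 2-fold, so 2-fold calls could change within it. At ZT12 the leukocyte median went from -0.23 to -1.17 with median scaling. The median of the widely expressed integrin chains went from 0.94 to 0.01 with median scaling and to 2.19 in the series table. Scaling on the array median gave 16 members lower at ZT12 (4 with the 75th percentile) and 7 higher at ZT0 (4). Of 544 differences of single members, 523 kept within that spread, 17 moved further and 4 reversed. Itgam became -0.67 at ZT12 and 1.51 at ZT0 without probes that share a run with other genes, an alternative chosen after seeing the data, and 0.14 at ZT0 as the mean of its probes. Itga2 became 0.82 at ZT12 with normexp, where it is not well above background on ZT12 ALDH-high. Other causes were not tested. No paired analysis was possible because the groups share fewer than 2 replicate numbers, so the arrays were instead matched by time in the additive fit or by position in the alternative. Signal over background limits Itga2, Itga2b, Itgad, Itga8, Itga10, Itgb8, Lama2 and Lama3, which were not well above background on every array.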
